A study of Mus musculus with 2 samples.

Results

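The 10 genes described here are immediate early genes, *Fos*, *Fosb*, *Jun*, *Junb*, *Jund*, *Egr1*, *Atf3*, *Ier2*, *Ier3* and *Nr4a1*. They were found by their symbols in the deposited table, out of 45777 gene symbols in all. Liver RNA came from C57BL/6 mice that were fed a high-fat diet (HFD) from 7 weeks of age for 18 weeks. At week 13 of the diet, they received AAV-GFP, a virus that encodes green fluorescent protein, or AAV-*Wee1-AS*, which encodes the long noncoding RNA *Wee1-AS*. Both groups shared the diet and the retro-orbital route. The *Wee1-AS* vector was an AAV9 with a CMV promoter, which is not restricted to hepatocytes. One library per group was analysed (n = 1), so the comparison has no replicate check, no test of the treatment is given, and *Wee1-AS* itself was not analysed here. How many mice went into a library, and their sex, are not given in the sources used here, and the series' description of its design speaks of more liver samples than the 2 libraries analysed here.

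Immediate early genes are transcribed within minutes of a stimulus, without the need for newly made protein. Growth factor and stress signals reach their promoters through MAP kinases that act on the serum response factor SRF with its ELK partners, and on CREB. FOS and JUN proteins pair through leucine zippers to form the transcription factor AP-1, which drives genes of growth, injury and matrix turnover. EGR1 is a zinc finger factor and NR4A1 an orphan nuclear receptor. In the liver, these genes are known to respond to resection, injury, cytokines and the handling of the tissue, and their mRNAs are short-lived.

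In the AAV-*Wee1-AS* library, 9 of the 10 genes were lower than in the AAV-GFP library, and *Egr1* was higher, although *Junb* and *Ier2* turned to the higher side once the trend of all genes with GC content and length was taken out. *Fosb*, *Nr4a1*, *Ier3*, *Atf3* and *Fos* were more than 2-fold lower, and none of the 10 was more than 2-fold higher. The number more than 2-fold lower was 3 on deposited TPM and 1 on deposited FPKM, each with a pseudocount of 1, and 4 with the GC and length trends taken out. The 5 genes on the lower side stand beside 8.43% of all 15857 genes past the count filter (10 counts in either library or more) that were more than 2-fold lower, 22.5% that were more than 2-fold higher and 31.0% past 2-fold in either direction. Of all genes, 50.1% were lower and 49.9% higher by any size. The members had a median log2 ratio of -1.01, and all genes one of -0.00205. Jun family genes, *Ier2* and *Egr1* stayed within 2-fold. All 10 members passed the count filter.

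The ratios compare estimated read counts, summed over the transcripts of a gene and scaled between libraries by the TMM method. Each has an exact 95% interval from the counts of both libraries, which holds counting error alone and no spread between mice or libraries. It treats each count as a separate molecule. PCR copies of a read are no further molecules, and the counts are estimates, so the counting error may be understated. The libraries held 55466182 counts (AAV-GFP) and 48079335 counts (AAV-*Wee1-AS*). In bulk liver, fewer cells of a type and less RNA per cell cannot be told apart.

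The promoters of the 5 genes that were more than 2-fold lower are shown for the letters that CREB and ATF proteins are known to bind. Each is the 250 bases before the RefSeq start site on the strand of the gene, 5′ to 3′, from build GRCm38.p6. Capitals mark the core letters TGACG on either strand, so that CGTCA in capitals is a match on the opposite strand. The windows are chr12:85473640-85473889 on the plus strand for *Fos*, chr7:19310046-19310295 on the minus strand for *Fosb* and chr1:191183334-191183583 on the minus strand for *Atf3*. Those of *Nr4a1* and *Ier3* are chr15:101266596-101266845 and chr17:35821463-35821712, both on the plus strand.
Fos: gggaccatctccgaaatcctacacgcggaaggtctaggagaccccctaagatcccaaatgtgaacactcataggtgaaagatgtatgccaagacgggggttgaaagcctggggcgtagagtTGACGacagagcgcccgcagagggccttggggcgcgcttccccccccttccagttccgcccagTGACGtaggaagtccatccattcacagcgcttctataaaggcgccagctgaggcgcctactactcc
Fosb: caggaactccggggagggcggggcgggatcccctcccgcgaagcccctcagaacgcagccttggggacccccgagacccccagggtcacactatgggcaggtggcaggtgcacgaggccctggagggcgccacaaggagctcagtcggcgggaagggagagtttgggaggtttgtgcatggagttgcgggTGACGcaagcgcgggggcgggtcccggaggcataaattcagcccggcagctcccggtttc
Atf3: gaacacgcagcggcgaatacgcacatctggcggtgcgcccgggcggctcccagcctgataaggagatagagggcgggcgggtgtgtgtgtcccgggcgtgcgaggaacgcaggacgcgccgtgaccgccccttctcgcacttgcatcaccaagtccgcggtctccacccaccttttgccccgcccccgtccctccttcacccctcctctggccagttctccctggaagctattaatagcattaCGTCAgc
Nr4a1: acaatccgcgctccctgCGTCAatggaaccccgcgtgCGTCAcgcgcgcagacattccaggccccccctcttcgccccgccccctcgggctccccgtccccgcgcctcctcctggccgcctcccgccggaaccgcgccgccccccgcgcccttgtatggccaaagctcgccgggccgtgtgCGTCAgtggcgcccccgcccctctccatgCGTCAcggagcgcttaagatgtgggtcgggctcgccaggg
Ier3: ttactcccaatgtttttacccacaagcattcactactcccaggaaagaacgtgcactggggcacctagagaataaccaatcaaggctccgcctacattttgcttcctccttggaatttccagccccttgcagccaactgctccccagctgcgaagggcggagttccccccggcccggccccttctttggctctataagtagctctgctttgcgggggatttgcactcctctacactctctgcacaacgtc

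Promoter windows were matched for 8 of the 10 members, all but *Egr1* and *Ier2*. TGACG occurred in 5 of the 8, in *Fos*, *Fosb*, *Atf3*, *Nr4a1* and *Junb*, and in 17.8% of the 32851 promoter windows of the same length. The share over all windows was not matched for GC content, so no enrichment is drawn from it. GC content of the member windows ranged from 47.6% in *Jund* to 74.4% in *Nr4a1*. *Nr4a1* held 4 matches, between positions -233 and -36 from the start site. *Fos* held 2, the nearer of them at -66 to -62, and *Atf3* held 1 at -7 to -3. The letters TATAA were in the windows of *Fos* and *Ier3* and in 22.8% of all windows. The EGR letters GCGNGGGCG were in those of *Fosb* and *Nr4a1* and in 4.70% of all. No member window held the full site TGACGTCA (1.55% of all), which contains TGACG, the AP-1 letters TGANTCA (6.75%) or the CArG box to which SRF binds (1.47%). Motifs were searched on both strands, as exact letters and only within the 250 bases before the start. Sites further from the start, or with other letters, were not searched. A window without a match therefore does not mean that the gene lacks such a site. The RefSeq start lies 1210 bases from the GENCODE gene start in *Jund*, 12577 bases in *Nr4a1* and 34706 bases in *Atf3*, so these windows belong to 1 of several annotated starts.

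*Fos* and *Fosb* encode the FOS partners of AP-1. *Fos* (chromosome 12, 85473890 to 85477274) had 190 counts with AAV-GFP and 71 with AAV-*Wee1-AS*. Its log2 ratio was -1.12 (95% counting interval -1.56 to -0.74), so that the interval reached across 2-fold. *Fosb* (chromosome 7, 19302696 to 19310118) had 142 counts with AAV-GFP and 13 with AAV-*Wee1-AS*, a log2 ratio of -3.01 (-4.12 to -2.35). *Fosb* was thus 8.03-fold lower, the lowest ratio among the 10, and 0.599% of all genes had a lower one.

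*Fosb* is spliced in alternative ways, and the shorter mRNA, which lacks 140 bases, is that of the truncated protein ΔFOSB. The longer variant 1 had 102 counts with AAV-GFP and 13 with AAV-*Wee1-AS*. The shorter variant 2 had 40 counts and 0 counts. Variant 2 held 28.2% of the *Fosb* counts with AAV-GFP (exact binomial 95% interval 20.9% to 36.3%). With AAV-*Wee1-AS*, variant 2 held 0 of 13 counts, and a floor of 3 counts would be a share of 23.1%. This floor is a rule of thumb and not an exact limit, so no contrast with the AAV-GFP interval is drawn. The counts of both variants are estimates that the authors' tool shared out between mRNAs with most of their bases in common. The share of a variant is therefore less certain than the sum over the gene.

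The JUN proteins are the partners of FOS in AP-1, with JUNB and JUND known to oppose JUN in growth control. *Jund* (chromosome 8, 70697739 to 70700616) had 4888 counts with AAV-GFP and 2158 with AAV-*Wee1-AS*, a log2 ratio of -0.90 (-0.98 to -0.83). *Jun* (chromosome 4, 95049036 to 95052222) had 1802 and 934 counts, a log2 ratio of -0.67 (-0.79 to -0.56). *Junb* (chromosome 8, 84976909 to 84978748) had 1649 and 951 counts, a log2 ratio of -0.52 (-0.63 to -0.40). All 3 were lower by less than 2-fold, with intervals below 0, as had 37.4% of all genes. The antisense gene *Junos* overlaps *Jun* from 95051534 to 95052222 and had 40 and 11 counts, and reads of the pair cannot be told apart where they overlap unless strand was used in the counting. The antisense gene *Gm11175*, which was not analysed here, overlaps *Jund* in the same way from 70699162 to 70700080.

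*Atf3* encodes a stress-induced partner of JUN proteins that mostly represses. It lies on chromosome 1, 191170296 to 191183333, and had 410 counts with AAV-GFP and 91 with AAV-*Wee1-AS*. Its log2 ratio was -1.87 (-2.24 to -1.56), which is 3.66-fold lower. The whole interval lay below 2-fold, as it did for *Fosb*, *Ier3* and *Nr4a1* among the members and for 3.61% of all genes. The matching share on the higher side was 16.3% of all genes and none of the members.

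*Ier3* (chromosome 17, 35821713 to 35822911) encodes a small regulator of cell survival that is induced by NF-κB and by growth signals. It had 119 counts with AAV-GFP and 22 with AAV-*Wee1-AS*, a log2 ratio of -2.07 (-2.89 to -1.49). *Ier2* (chromosome 8, 84661331 to 84662852), a nuclear protein gene of the same early response, had 812 and 521 counts. The log2 ratio of *Ier2* was -0.36 (-0.52 to -0.20), so the pair differed by far more than their counting intervals.

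*Nr4a1* (chromosome 15, 101253902 to 101274795) had 257 counts with AAV-GFP and 48 with AAV-*Wee1-AS*, a log2 ratio of -2.10 (-2.62 to -1.69). The table lists 7 transcripts of this gene, and 4 of them had counts. The curated transcript had 130 counts with AAV-GFP and 27 with AAV-*Wee1-AS*. The predicted variants X2 and X3 had 69 and 58 counts with AAV-GFP and 0 with AAV-*Wee1-AS*, while X5 had 0 and 21. Since estimated counts are shared out between overlapping transcripts, the sum over the gene is the firmer value.

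*Egr1*, on chromosome 18, had 722 counts with AAV-GFP and 719 with AAV-*Wee1-AS* at a lower total depth, which made a log2 ratio of 0.27 (0.12 to 0.42). It was the only member above 0. The difference was 1.21-fold, and 59.2% of all genes had a lower ratio. Counting intervals lay wholly above 0 in 39.6% of all genes.

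**Figure D1:**
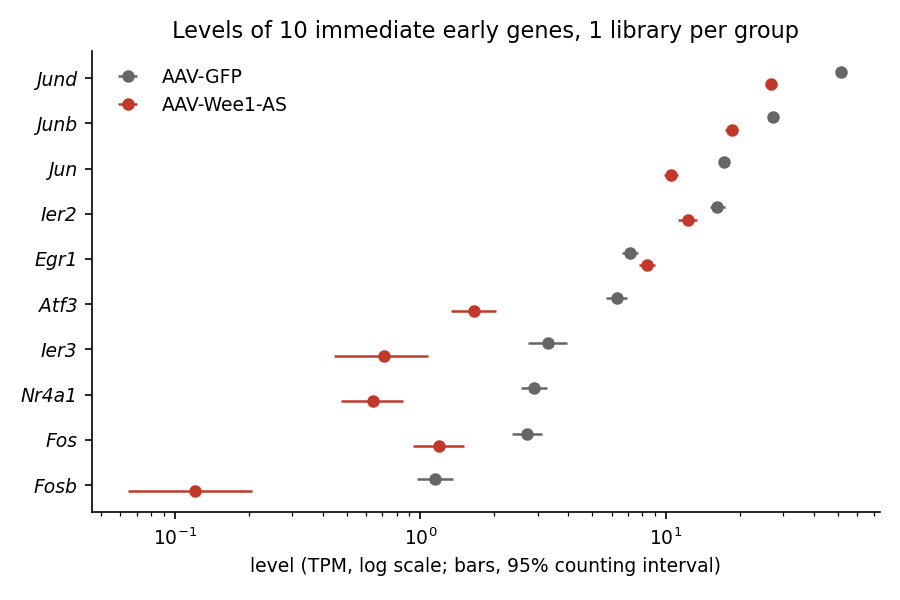
Level of each member in TPM on a log axis, with the AAV-GFP library in grey and the AAV-*Wee1-AS* library in red, and bars for the exact 95% counting interval. The 5 members lowest in the AAV-GFP library, from *Atf3* down to *Fosb*, are set far to the left in the AAV-*Wee1-AS* library, and *Egr1* alone is set to the right.

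Levels were compared between genes in TPM, the deposited value per transcript length. In the AAV-GFP library, *Jund* was highest at 51.6 TPM (exact 95% counting interval 50.1 to 53.0), followed by *Junb* at 27.2 TPM. *Jun* at 17.2 TPM and *Ier2* at 16.2 TPM came next, with intervals that overlapped. *Egr1* at 7.14 TPM and *Atf3* at 6.30 TPM also overlapped. *Ier3* at 3.31 TPM, *Nr4a1* at 2.90 TPM and *Fos* at 2.72 TPM overlapped in turn but did not reach *Atf3* above or *Fosb* below, and *Fosb* was lowest at 1.15 TPM. The order therefore had *Jund* and *Junb* at the top and *Fosb* at the bottom, each without overlap with its neighbors.

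In the AAV-*Wee1-AS* library, *Jund* was again highest at 26.9 TPM and *Fosb* again lowest at 0.121 TPM (0.0643 to 0.207). *Junb* had 18.5 TPM, *Ier2* 12.3 TPM, *Jun* 10.5 TPM and *Egr1* 8.38 TPM, with no overlap between neighbors. *Atf3*, *Fos*, *Ier3* and *Nr4a1* followed at 1.65, 1.19, 0.711 and 0.643 TPM, where neighbors among the 4 overlapped and *Nr4a1* did not overlap *Fosb*. *Egr1* and *Atf3* were side by side in the order of both libraries, but in the AAV-*Wee1-AS* library they no longer overlapped.

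Summed over *Jun*, *Junb* and *Jund*, the level was 95.9 TPM with AAV-GFP and 55.9 TPM with AAV-*Wee1-AS*. *Jund* held 53.8% of this sum with AAV-GFP and 48.1% with AAV-*Wee1-AS*, *Junb* 28.4% and 33.1%, and *Jun* 17.9% and 18.8%. *Fos* and *Fosb* together had 3.87 TPM and 1.31 TPM. The JUN sum was 24.8 times that of *Fos* and *Fosb* with AAV-GFP and 42.6 times with AAV-*Wee1-AS*. With *Fosl1* and *Fosl2* counted among the FOS genes, whose sum was then 7.34 and 4.65 TPM, it was 13.1 times and 12.0 times, so the higher ratio with AAV-*Wee1-AS* held for *Fos* and *Fosb* alone. *Fosl2*, a further FOS gene, had 664 and 547 counts, a log2 ratio of -0.0018 (-0.17 to 0.16), and *Fosl1* had 2 counts and 1 count.

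The 5 members more than 2-fold lower were also the 5 with the lowest levels in the AAV-GFP library, from 1.15 to 6.30 TPM, and the other 5 ranged from 7.14 to 51.6 TPM. As a mean over both libraries, the 5 low members ranged from 0.635 to 3.97 TPM and the other 5 from 7.76 to 39.2 TPM. Of 4415 genes with a mean in the lower range, 8.88% were more than 2-fold lower, and their median log2 ratio was 0.29. Of 3850 genes with a mean in the higher range, 4.34% were more than 2-fold lower, and the median was -0.15.

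**Figure D2:**
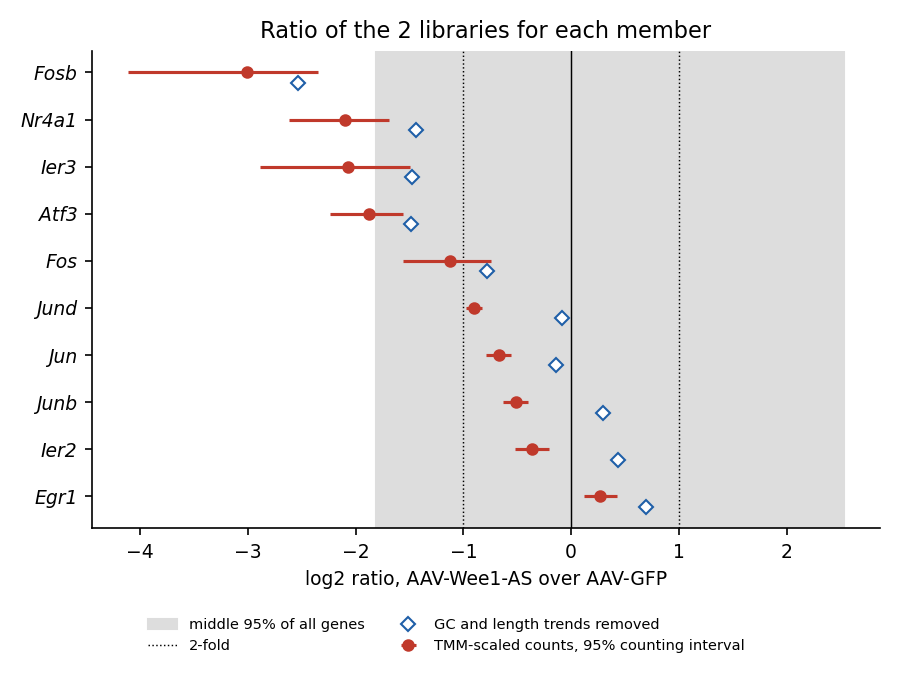
Log2 of the level with AAV-*Wee1-AS* over that with AAV-GFP for each member, as red points with the exact 95% counting interval, and as open diamonds once the GC and length trends were taken out. The grey band is the middle 95% of all genes, from -1.81 to 2.53, and *Fosb*, *Nr4a1*, *Ier3* and *Atf3* lie below it before removal of the trends.

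Across all genes, the log2 ratio followed the GC content of the transcript (Spearman coefficient -0.67 over 14995 genes of the same 2 libraries). The members are rich in GC, from 51.9% in *Fos* to 67.1% in *Jund*, with a median of 56.5% against 49.8% in all genes. Each member was therefore also set against its decile of all genes by GC content. The median log2 ratio was -0.32 in the decile of *Fos* and *Atf3*, -0.48 in that of *Ier3*, -0.60 in that of *Fosb*, *Jun*, *Egr1* and *Nr4a1*, and -0.68 in that of *Junb*, *Jund* and *Ier2*. In its own decile, 1.00% of genes had a lower ratio than *Fosb*, 1.87% than *Ier3*, 3.47% than *Nr4a1*, 3.54% than *Atf3* and 9.01% than *Fos*. For the JUN genes, these shares were 26.5% (*Jund*), 42.2% (*Jun*) and 66.3% (*Junb*). They were 79.5% for *Ier2* and 94% for *Egr1*.

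After lowess trends on GC content and length were taken out across all genes, *Fosb* had a log2 ratio of -2.54, *Atf3* one of -1.49, *Ier3* one of -1.48, *Nr4a1* one of -1.44 and *Fos* one of -0.78. *Jun* and *Jund* then lay at -0.14 and -0.09. The sign turned for *Junb* (0.30) and *Ier2* (0.44), and *Egr1* moved to 0.69. So 4 of the 10 members were still more than 2-fold lower, beside 8.48% of all genes, none was more than 2-fold higher, beside 7.38%, and 7 were lower by any size, beside 50.6% of all genes. The median over members was -0.46, and over all genes it was -0.00947.

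**Figure D3:**
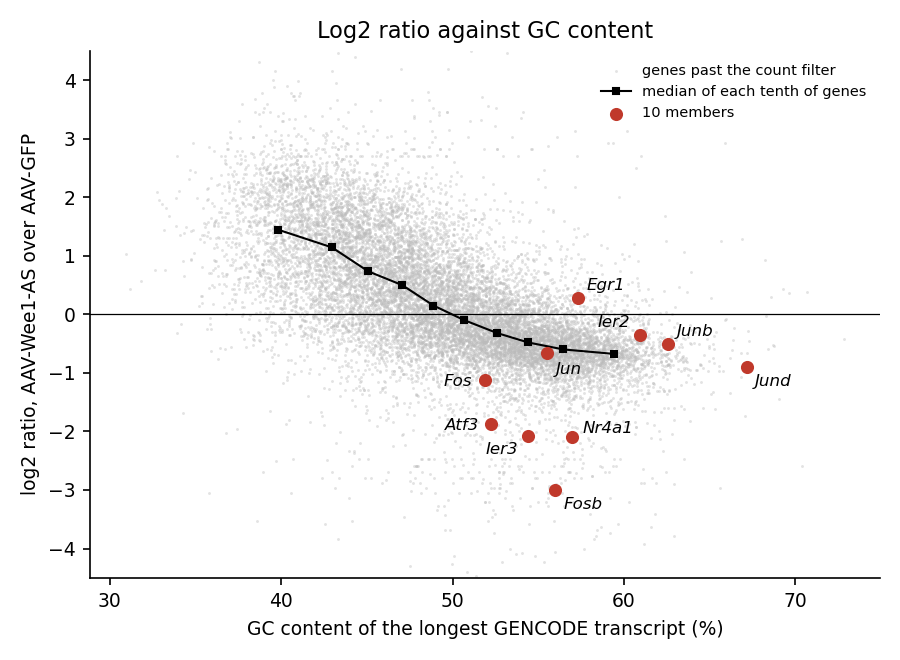
Log2 of the level with AAV-*Wee1-AS* over that with AAV-GFP against the GC content of the longest GENCODE transcript in percent, for genes past the count filter (grey), the median of each decile of genes by GC content (black squares) and the 10 members (red). Fos, Atf3, Ier3, Nr4a1, Fosb, Jun and Jund lie below the medians of their deciles, Egr1, Junb and Ier2 lie above, and 13 genes are outside the plotted range.

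Other genes of the pathway were taken from lists set by family and role, and their counts stand beside the same 8.43% of all genes more than 2-fold lower and 22.5% more than 2-fold higher. Of 14 further FOS, ATF, BATF and MAF genes, which can pair with the members, 13 passed the count filter. Of these, 3 were more than 2-fold lower and 1 more than 2-fold higher, with a median log2 ratio of -0.29. *Maff*, a small MAF protein gene, had 937 and 255 counts and a log2 ratio of -1.59 (-1.81 to -1.40). *Jdp2*, a repressor of AP-1, had 148 and 51 counts and a log2 ratio of -1.23 (-1.75 to -0.79), and *Mafk* one of -0.84 (-0.98 to -0.70). *Atf2*, which pairs with JUN, had 269 and 744 counts and a log2 ratio of 1.74 (1.54 to 1.95), *Maf* had one of 0.45 (0.28 to 0.63) and *Atf7* one of 0.32 (0.20 to 0.44). With the trends removed, 0 of the 13 were more than 2-fold lower, *Atf2* lay at 0.42, and another gene of the list was the 1 more than 2-fold higher. *Maf* and *Atf7* then turned to the lower side, at -0.34 and -0.56.

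The closest relatives of *Egr1* and *Nr4a1* had low counts. *Egr2* had 74 counts with AAV-GFP and 6 with AAV-*Wee1-AS*, a log2 ratio of -3.01 (-4.84 to -2.16). *Egr3* and *Nr4a3* each had 27 and 4 counts, a log2 ratio of -2.05 (-4.45 to -0.96), while *Nr4a2* had 30 and 28 counts, a log2 ratio of 0.17 (-0.62 to 0.97). *Egr2* and *Egr3* were on the other side of 0 from *Egr1*. No contrast with *Egr1* is drawn from this, because both passed the count filter only through the AAV-GFP library. *Egr4* was at 0 in both libraries. *Nab1*, a corepressor of EGR proteins, had 739 and 1767 counts and a log2 ratio of 1.53 (1.41 to 1.66), its relative *Nab2* one of -0.10 (-0.27 to 0.06), and *Rxra*, whose protein pairs with NR4A1, one of -0.30 (-0.33 to -0.28). In all, 3 of the 7 genes past the filter were more than 2-fold lower and 1 more than 2-fold higher, also with the trends removed. *Egr2*, *Egr3* and *Nr4a3*, the 3 lower ones, passed the filter only through the AAV-GFP library, where they were high. With a minimum of 10 counts in both libraries, 0 of the relatives were more than 2-fold lower, as with FPKM or TPM and a pseudocount of 1. With the trends removed, *Nab2* and *Rxra* turned to the higher side, at 0.64 and 0.04, and *Nr4a2* to the lower side, at -0.17.

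Of 40 other early response genes, all past the filter, 10 were more than 2-fold lower and 1 more than 2-fold higher, with a median log2 ratio of -0.52. Of these 10, 2 passed the filter only through the AAV-GFP library, where they were high, and 8 were more than 2-fold lower with a minimum of 10 counts in both libraries. The number more than 2-fold lower was 5 on TPM and 2 on FPKM, each with a pseudocount of 1. *Gadd45b*, a stress sensor that acts on MAP kinases, had 106 and 12 counts and a log2 ratio of -2.69 (-3.86 to -2.0). *Ccn1* and *Ccn2*, which encode matrix-associated proteins, had log2 ratios of -1.51 (-1.75 to -1.30) and -1.18 (-1.42 to -0.96). *Dusp1*, a MAP kinase phosphatase gene, had 2143 and 1141 counts and a log2 ratio of -0.63 (-0.74 to -0.53), and *Zfp36*, whose protein speeds the decay of early mRNAs, had 5336 and 3401 counts and one of -0.37 (-0.43 to -0.31). *Myc* had one of -0.41 (-0.73 to -0.11). On the higher side were *Nfkbiz* with 1.57 (1.27 to 1.92), *Klf6* with 0.67 (0.45 to 0.91) and *Plk2* with 0.50 (0.31 to 0.70). With the trends removed, 7 of the 40 were more than 2-fold lower, 1 of them a gene with 2 counts in the AAV-*Wee1-AS* library, and 1 more than 2-fold higher. *Klf6* then turned to the lower side (-0.49), and *Zfp36* (0.12) and *Myc* (0.05) to the higher side. *Dusp1* lay at -0.12, *Nfkbiz* at 1.46 and *Plk2* at 0.29.

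**Figure D4:**
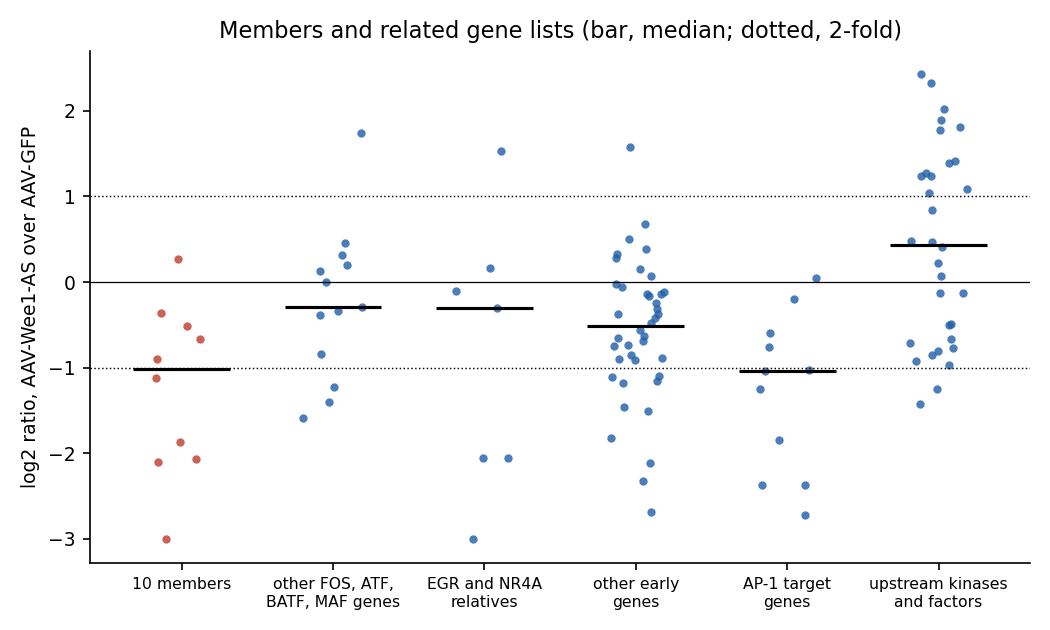
Log2 of the level with AAV-*Wee1-AS* over that with AAV-GFP for each gene past the count filter in the members (red) and 5 related lists (blue), with a black bar at the median of a list and dotted lines at 2-fold. The medians of the members and the AP-1 target genes lie at -1.01 and -1.04, and that of the upstream kinases and factors lies at 0.44.

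Of 32 kinases and factors that induce the members, 13 (40.6%) were more than 2-fold higher, beside 22.5% of all genes, and 2 more than 2-fold lower, beside 8.43%, with a median log2 ratio of 0.44. The highest were *Braf* with 2.43 (2.13 to 2.80), *Creb1* with 2.32 (2.03 to 2.69) and the stress kinase gene *Map3k5* with 2.02 (1.89 to 2.16). *Rps6ka1* had a log2 ratio of -1.25 (-1.35 to -1.15), *Mapk3* one of -0.97 (-1.05 to -0.89) and *Mapkapk2* one of -0.92 (-0.99 to -0.86). *Mapk8*, which encodes the JUN kinase JNK1, had one of 1.78 (1.55 to 2.03), and *Srf* one of -0.86 (-1.04 to -0.68). With the trends removed, 1 of the 32 was more than 2-fold higher and 1 more than 2-fold lower, and the median was 0.04. *Map3k5* then lay at 1.69, *Braf* at 0.75, *Creb1* at 0.48 and *Mapk8* at 0.21. *Rps6ka1* lay at -0.64, *Mapkapk2* at -0.26, *Mapk3* at -0.24 and *Srf* at -0.09.

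Of 12 genes known to be driven through AP-1, 11 passed the filter, and *Il6* was at 0 in both libraries. Of the 11, 7 (63.6%) were more than 2-fold lower and none more than 2-fold higher, with a median log2 ratio of -1.04. *Plaur*, the receptor of the protease urokinase, had 181 and 21 counts and a log2 ratio of -2.73 (-3.56 to -2.17). *Timp1*, an inhibitor of matrix proteases, had 160 and 24 counts and one of -2.37 (-3.14 to -1.83), and *Plau*, urokinase itself, one of -1.04 (-1.45 to -0.67). *Spp1*, or osteopontin, had 1900 and 1365 counts and a log2 ratio of -0.20 (-0.30 to -0.10), and *Cd44* one of 0.04 (-0.12 to 0.21). With the trends removed, 7 of the 11 were again more than 2-fold lower, and the number was 4 on TPM and 3 on FPKM with a pseudocount of 1. Between the groups of 7, *Mmp9* left with the trends removed (from -1.25 to -0.74) and *Cd44* entered (-1.05). *Mmp9*, a matrix protease gene, was named here after its values were seen.

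Many liver cell types express these genes, so marker lists were set beside them. Their counts past 2-fold stand beside the same 8.43% of all genes more than 2-fold lower and 22.5% more than 2-fold higher. The 8 hepatocyte markers summed to 77135 TPM with AAV-GFP and 86320 TPM with AAV-*Wee1-AS*, with 4 genes higher, 2 of them more than 2-fold, and 4 lower. Kupffer cell and macrophage markers summed to 428 and 332 TPM, but 4 of the 8 were higher, 3 of them more than 2-fold, none was more than 2-fold lower, and their median log2 ratio was -0.015. Endothelial markers summed to 175 and 140 TPM, with 5 of 8 lower and none past 2-fold. Stellate cell markers summed to 179 and 160 TPM, with 4 of 8 lower, and 2 more than 2-fold lower and 2 more than 2-fold higher. Lymphocyte markers summed to 5.90 and 5.13 TPM (5 of 8 lower, with 1 past 2-fold in each direction, each of which passed the filter only through the library where it was high), with *Ms4a1* at 0 with AAV-GFP. Cholangiocyte markers summed to 12.5 and 12.3 TPM, with 3 of the 5 past the filter lower and *Cftr* at 0 with AAV-GFP. Neutrophil markers summed to 14.8 and 7.33 TPM, with 4 of the 5 past the filter lower, 2 of them more than 2-fold, and *Ly6g* at 0 in both libraries. With the trends removed, 7.38% of all genes were more than 2-fold higher and 8.48% more than 2-fold lower. More than 2-fold higher were then 0 hepatocyte, 1 Kupffer cell or macrophage, 0 stellate cell and 1 lymphocyte markers. More than 2-fold lower were 1 stellate cell, 1 lymphocyte and 2 neutrophil markers. Lower by any size were 2 of 8 hepatocyte, 5 of 8 stellate cell and 6 of 8 lymphocyte markers, beside 50.6% of all genes. All 5 neutrophil markers and 1 of 5 cholangiocyte markers were lower. The part of these cells in the ratios of the members was not tested.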

How the data were processed

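Poly-A RNA of 1 liver library per group was sequenced. The processing notes of the labels name Trimmomatic 0.38, HISAT2 2.1.0, SAMtools 1.9 and StringTie 2.1.3b and build mm10. The authors deposited 1 table of 129299 RefSeq transcripts with, for each library, the estimated count, FPKM and TPM. The deposited counts are not normalized and are shared out between overlapping transcripts. The kit was stranded, but the strand setting of the counting is not given in the sources used here.

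Counts were summed per symbol and scaled by TMM (edgeR 4.0.16, R 4.3.3) over genes that reached 10 counts in either library. Log2 ratios used a prior count of 2, with Clopper-Pearson 95% intervals. TPM intervals are exact Poisson intervals. No test was run, with 1 library per group. GC content (14995 genes, 94.6%) was taken from the longest GENCODE M21 transcript, and trends were removed by lowess (span 0.3, 5 cycles; statsmodels 0.14.6). Steps were tested on simulated data. Further tools were Python 3.11.15, numpy 2.4.6, pandas 2.3.3, scipy 1.17.1, matplotlib 3.10.9 and, for alternative size factors, DESeq2 1.42.0.

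The members and lists were chosen with earlier results of these data known. All members were named, as were from each list the 3 highest and 3 lowest genes that reached 100 counts in either library, and *Fosl1*, *Fosl2*, *Egr2*, *Egr3*, *Nr4a2*, *Nr4a3*, *Dusp1*, *Zfp36*, *Myc*, *Srf*, *Mapk3*, *Mapk8* and *Spp1*. One further gene of the rule is not reported here. Genes at 0, *Mmp9*, *Junos* and *Gm11175* were named after their values were seen.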

Additional observations from a re-analysis of the deposited data

How the results depend on the processing

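*Fos*, *Fosb*, *Jun*, *Jund*, *Atf3*, *Ier3* and *Nr4a1* were lower and *Egr1* was higher under all 11 alternatives, which covered scaling, count filters, prior count, unit, curated transcripts and trends with GC content and length. *Junb* and *Ier2* were lower under 10 of them. The number of members more than 2-fold lower was 5 in the report and ranged from 1 to 6. It was 6 with upper quartile scaling, which also lowered the median of all genes to -0.13. With FPKM and a pseudocount of 1, the median over members was -0.61, and the counts were 1 member lower, 0 EGR and NR4A relatives lower, 2 other early genes lower and 0 higher, 3 AP-1 targets lower, and 4 upstream genes higher and 1 lower. With TPM and a pseudocount of 1, they were 3 members lower, 0 EGR and NR4A relatives lower, 5 other early genes lower, 4 AP-1 targets lower, and 7 upstream genes higher and 1 lower. A pseudocount of 1 is near the level of several members, which shrinks their ratios. With the trends removed, the median over members was -0.46, 0 other FOS, ATF, BATF and MAF genes were lower, and 1 upstream gene was higher and 1 lower. With curated transcripts only, 5 other FOS, ATF, BATF and MAF genes, 1 EGR or NR4A relative and 4 upstream genes were lower, and 2 other early genes were higher. Under upper quartile scaling, 4 upstream genes were lower. With at least 10 counts in both libraries and with at least 50 in either, 0 and 1 EGR and NR4A relatives were lower, since fewer relatives passed the filter. All counts refer to 2-fold. Other causes were not tested. No paired analysis was possible because there was 1 library per group. Depth limits the genes with few counts in the AAV-*Wee1-AS* library, among them *Fosb* (13), *Ier3* (22), *Egr2* (6), *Egr3* (4), *Nr4a3* (4), *Gadd45b* (12) and *Plaur* (21).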
